A study of Mus musculus with 2 samples.

Results

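The kallikrein-kinin system was described by 10 genes, of 30198 with a probe on the array: the tissue kallikrein Klk1, its paralogs Klk1b3, Klk1b4, Klk1b8 and Klk1b21, the kininogens Kng1 and Kng2, the kinin receptors Bdkrb1 and Bdkrb2, and the peptidase Mme. A member was any non-control probe that carried one of these gene names, and 13 probes did. The names were chosen with differences between these 2 arrays in view, so their values are given as a description and not as evidence for a change.

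Gene expression had been measured on 1 one-colour Agilent array of Gata2 CKO mice and 1 of WT mice. Gata2 encodes a zinc finger transcription factor. Gata2 CKO mice had the genotype Gata2flox/-::Pax8-rtTA::Tet-Cre, and the WT label gives neither a transgene nor an allele. Doxycycline was started at an age of 4 weeks and given for 4 weeks, and all mice were 8 weeks old and of mixed sex. The doxycycline protocol is worded alike for both genotypes. Pax8-rtTA drives the recombinase along renal tubules and not in the collecting duct alone, and the second Gata2 allele of Gata2 CKO mice was null in every cell. Collecting duct cells were purified with magnetic beads and DBA lectin, which binds collecting duct epithelium, and 50 ng of their total RNA went into amplification and Cy3 labelling. In the design text there are 3 mice per genotype, and the array names speak of mixtures, but whether RNA of all 3 was combined is not stated. With 1 array per genotype, no difference here has a replicate check and no test was possible. In such bulk RNA, fewer cells of a type and less RNA per cell cannot be told apart.

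Tissue kallikrein is a serine protease that cuts kininogens to release kinins, short peptides that dilate vessels and act on salt and water transport. Kinins signal through the B1 and B2 receptors and are degraded by peptidases such as neprilysin, the product of Mme. In the kidney, tissue kallikrein is made mainly by connecting tubule cells, which adjoin the collecting duct, and is secreted into the tubular fluid. The mouse genome carries, beside Klk1, a tandem array of closely related Klk1b genes, best known from the salivary glands.

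Because the Klk1b genes are so alike, the probes that stand for the 5 kallikrein members are shown first. Each probe has 60 bases and is written 5′ to 3′. Capitals mark bases that differ from the Klk1 probe where a probe could be laid over it without gaps.
Klk1 (transcript position 520): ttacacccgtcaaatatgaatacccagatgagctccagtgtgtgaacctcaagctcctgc
Klk1b4 (position 487): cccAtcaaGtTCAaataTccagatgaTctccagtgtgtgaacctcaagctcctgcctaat
Klk1b8 (position 527): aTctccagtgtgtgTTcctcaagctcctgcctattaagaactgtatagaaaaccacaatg
Klk1b3 (position 605): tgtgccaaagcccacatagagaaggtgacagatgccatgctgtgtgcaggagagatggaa
Klk1b3 (position 94): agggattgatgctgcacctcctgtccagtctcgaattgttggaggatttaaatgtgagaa
Klk1b21 (position 202): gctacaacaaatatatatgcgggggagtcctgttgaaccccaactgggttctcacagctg
The Klk1b4 probe overlapped the Klk1 probe by 55 bases, of which 48 were identical and 7 differed, with an unbroken shared run of 28 bases. The Klk1b8 probe overlapped it by 30 bases, of which 3 differed. The Klk1b8 and Klk1b4 probes overlapped each other by 35 bases, of which 32 were identical. The Klk1b21 probe and both Klk1b3 probes lay elsewhere in their transcripts and shared no such stretch with the Klk1 probe. The files' annotation gives 1 target gene each for the probes of Klk1, Klk1b4 and Klk1b8 and for the Klk1b3 probe at position 605. It gives 3 for the Klk1b21 probe, namely Klk1b21, Klk1b24 and Klk1b11, and 4 for the Klk1b3 probe at position 94, namely Klk1b3, Klk1b16, Klk1 and Klk1b9. How far transcripts of one kallikrein bind the probe of another was not tested, so a value is that of its probe and its assignment to 1 paralog is uncertain.

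In mm9, the build of the files, these probes lay on chromosome 7. The Klk1 probe spanned chr7:51484170-51484325 and the Klk1b4 probe chr7:51466302-51466457, and both crossed an intron. The Klk1b3 probe at position 94 also crossed an intron, at chr7:51453655-51455660. The one at position 605 crossed none and was placed at chr7:51457064-51457122, a span of 59 bases for a probe of 60. The Klk1b8 probe lay at chr7:51209619-51209678 and the Klk1b21 probe at chr7:51359794-51359853. Whether a probe lies in coding sequence was not analysed here.

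All 5 kallikrein members were 2.67- to 3.05-fold higher on the Gata2 CKO array than on the WT array. Signals below are the processed intensity of a probe's spot. The 75th percentile of all non-control probes was 250.1 on the Gata2 CKO array and 314 on the WT array. Each array was therefore divided by its own percentile before a difference was taken, as Gata2 CKO minus WT on the log2 scale. The error beside a difference is that of the scanner software for the spots and does not cover mice, purification or labelling.

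Klk1, the enzyme that gives the system its name, had a signal of 89899 on the Gata2 CKO array and 39707 on the WT array. Its difference was 1.51 ± 0.20 (spot error), or 2.84-fold, and 65 of the 18972 genes measured had a higher one. Klk1b3, known in mouse salivary gland as the gamma subunit of the nerve growth factor complex, had 92309 on the Gata2 CKO array and 43395 on the WT array at position 605, a difference of 1.42 ± 0.20. Its probe at position 94, with the 4 annotated targets, had 22421 on the Gata2 CKO array and 9622 on the WT array, a difference of 1.55 ± 0.20. Both probes of the gene were thus higher in Gata2 CKO cells, and their differences were within the software's spot error of each other. By its annotation, the probe at position 94 is not a reading of Klk1b3 alone. Klk1b4, the alpha subunit of the same complex, which lacks protease activity, had 36275 on the Gata2 CKO array and 15597 on the WT array, a difference of 1.55 ± 0.20. Klk1b8, another member of the tandem array, had 42209.5 on the Gata2 CKO array and 17458 on the WT array, a difference of 1.60 ± 0.20. The probe of Klk1b21 and its annotated partners had 2403 on the Gata2 CKO array and 991 on the WT array, a difference of 1.61 ± 0.20. The 5 genes had differences between 1.42 and 1.61 with a median of 1.55, so that the highest and the lowest were 1.14-fold apart. Their SD over genes was 0.078, below the software's error of a single difference. It was above the SD of 0.032 between repeated spots, in the brightest group of probes printed 10 times. These genes share sequence and are not 5 independent readings.

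**Figure D1:**
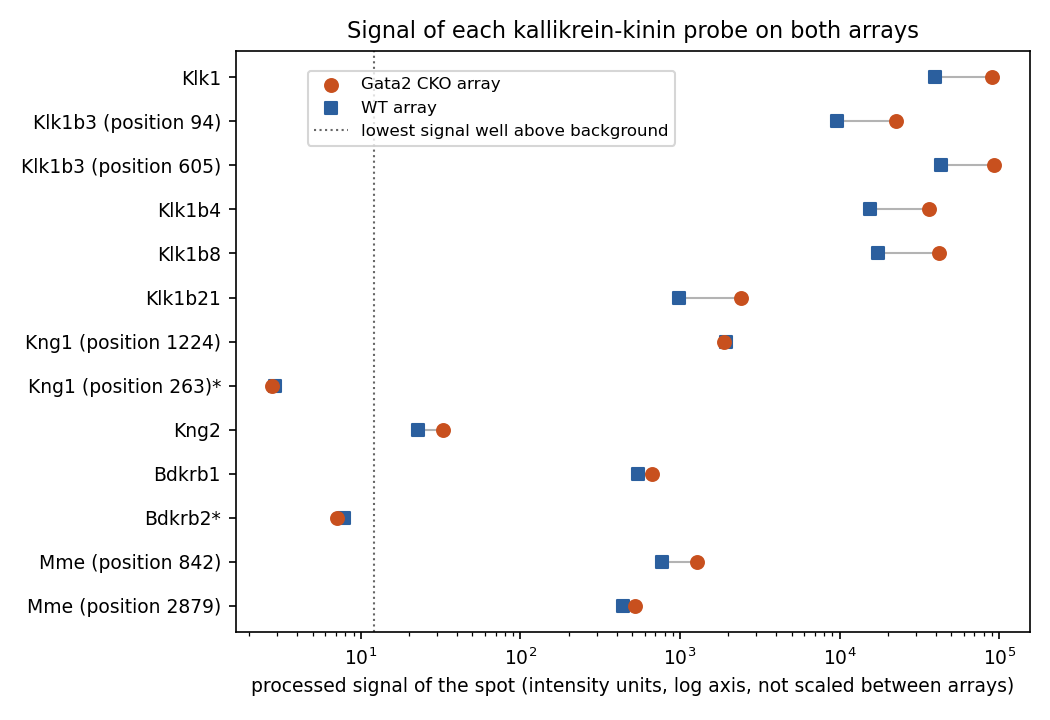
Processed signal of the spot (intensity units, log axis, not scaled between arrays) of the 13 member probes on the Gata2 CKO array (circles) and the WT array (squares). The 6 kallikrein probes lie further apart between the arrays than the others. Probes with an asterisk were not well above background on either array, and the dotted line is the lowest signal well above background on the WT array, 12.04.

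By the same measure, 9 of the 10 members were well above background, and 6 of these 9 were at least 2-fold higher in Gata2 CKO cells: the 5 kallikreins and Mme. Of all 18972 genes measured, 1.49% reached this size upwards and 2.84% reached it downwards. No member was 2-fold lower, and all 9 had a positive difference, against a median of 0.04 over all genes measured. The central 95% of all genes lay between −1.07 and 0.85. As the members were chosen from this contrast, nothing is read from their count against these shares.

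**Figure D2:**
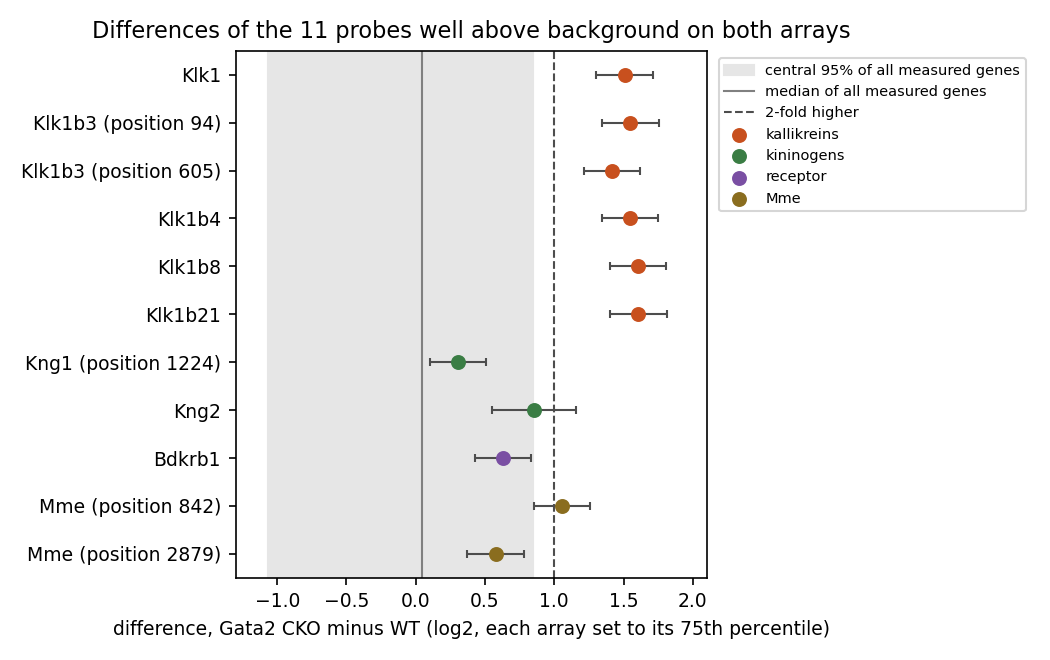
Difference between Gata2 CKO and WT (log2, each array set to its 75th percentile) of the 11 member probes well above background on both arrays, with the spot error as bars. The kallikrein probes lie between 1.42 and 1.61, right of the dashed 2-fold line, while the kininogens, Bdkrb1 and Mme lie between 0.30 and 1.06. Shading marks the central 95% of all measured genes and the grey line their median.

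The other Klk1b genes, which are no members, gave like differences. Klk1b9 had a signal of 269.8 on the Gata2 CKO array and 108 on the WT array, a difference of 1.65 ± 0.21. Klk1b16 had 286 on the Gata2 CKO array and 126 on the WT array, a difference of 1.51 ± 0.21. Klk1b24, whose probe is also annotated to Klk1b22, had 343 on the Gata2 CKO array and 160.9 on the WT array, a difference of 1.42 ± 0.21. All 3 were at least 2-fold higher, as the kallikrein members were. Klk1b11 had 71.3 on the Gata2 CKO array and 34.1 on the WT array, a difference of 1.39 ± 0.24. Klk1b27 had 113.5 on the Gata2 CKO array and 60.8 on the WT array, a difference of 1.23 ± 0.21, the smallest among Klk1 and the Klk1b genes read on both arrays. Over these 5 genes the median was 1.42, against 1.55 for the 5 kallikrein members. The probes of Klk1b11, Klk1b24 and Klk1b27 overlapped each other by 53 to 60 bases, at 84.9 to 90% identity. These genes too share sequence and are not independent readings. The probe named Klk1b26 had 22.6 on the Gata2 CKO array and was not well above background on the WT array, at 14.9, so that it was at least 1.90-fold higher. A second probe that is annotated to Klk1b26 but carries its older name Egfbp2 had 33288 on the Gata2 CKO array and 13851 on the WT array, a difference of 1.59. Klk1b1 was not well above background on either array, with 2.40 on the Gata2 CKO array and 2.51 on the WT array. Of 12 genes among Klk1 and the Klk1b paralogs on the array, 10 were well above background on both arrays. Of these, 10 of 10 were at least 2-fold higher, against 1.49% of all genes measured. Of the 17688 genes with a probe well above background on both arrays, the like set, 1.17% were. When the arrays were instead set equal on spike-in transcripts, all 10 remained higher but only 4 by at least 2-fold. These were Klk1b4, Klk1b8, Klk1b9 and Klk1b21, and 0.32% of all genes measured were 2-fold higher on that scale. With normexp background correction 8 of the 10 were at least 2-fold higher, without Klk1b11 and Klk1b27, against 0.34% of all genes measured. The signals of the probes of these 10 genes ranged from 71.3 to 92309 on the Gata2 CKO array and from 34.1 to 43395 on the WT array.

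Among probes read on both arrays, the higher signals ended at the edges of the Klk1b array. Klk1 lies at one end of it, and the 11 probes of Klk1 and its paralogs that were read on both arrays lay from −275 to 0 kb relative to the Klk1 probe, with differences from 1.23 to 1.65. A set of 3 probes between them with no gene name of the family, described after their values were seen, had differences of 1.49, 1.56 and 1.15. Past Klk1, an unnamed probe only 1.60 kb away had 65.4 on the Gata2 CKO array and 67.2 on the WT array, a difference of 0.29. Clec11a, a growth factor gene 75.6 kb past Klk1, had a difference of 0.42. On the other side, the kallikrein-related peptidase genes Klk4, Klk10 and Klk14, which encode more distant relatives of tissue kallikrein, had differences of 0.28, 0.39 and −0.14, at positions from −343 to −534 kb. None of the genes beyond the Klk1b array was 2-fold apart among these probes.

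**Figure D3:**
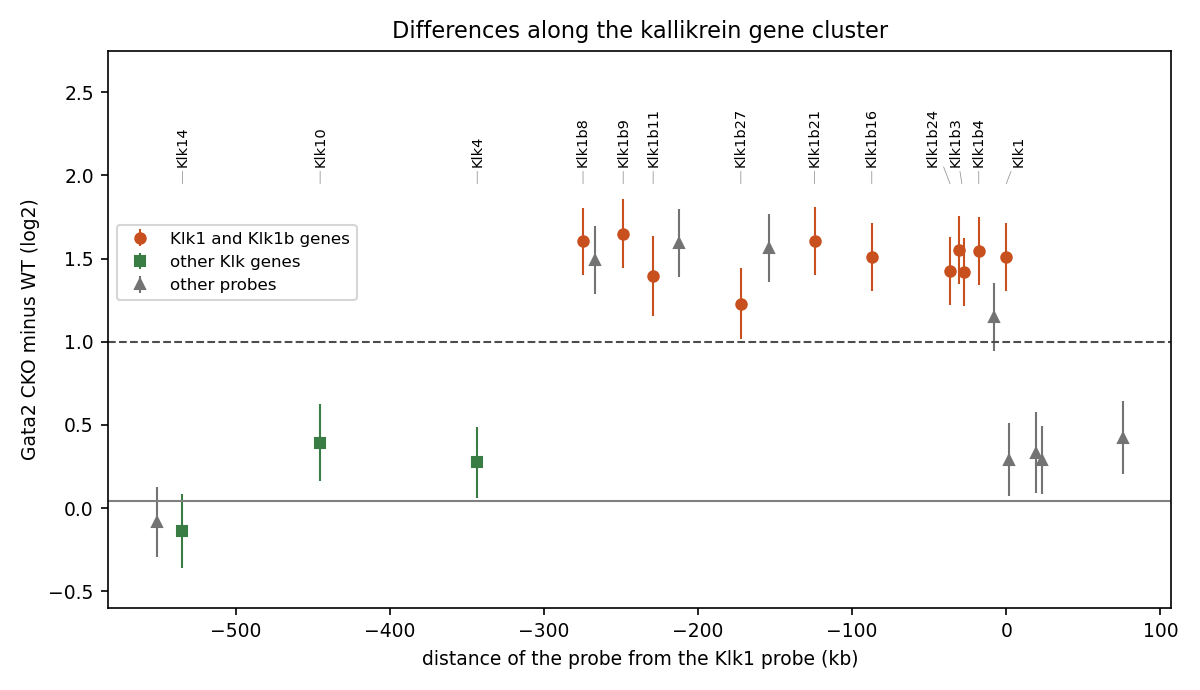
Difference between Gata2 CKO and WT (log2, spot error as bars) of every probe read on both arrays, against its distance from the Klk1 probe (kb), for Klk1 and Klk1b genes (circles), other Klk genes (squares) and other probes (triangles). With the reported scaling, probes from −275 kb to 0 lie above the dashed 2-fold line, and those on either side lie between −0.14 and 0.42. The grey line is the median of all measured genes, 0.04.

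The bases before the start sites of Klk1 and the Klk1b genes were also compared, and any bearing of them on the differences was not tested. RefSeq windows of 250 bases before to 50 after each gene's start (GRCm38.p6) were given for Klk1 and 13 Klk1b genes. Each was aligned, with gaps, to the 120 bases before the Klk1 start. The stretches of the 5 members are shown because a reader can see in them what the paralogs share. Capitals mark bases that differ from Klk1 or are not in it, a base that is only in Klk1 leaves no mark, and all are read 5′ to 3′ on the plus strand of chromosome 7.
Klk1 (chr7:44225240-44225359): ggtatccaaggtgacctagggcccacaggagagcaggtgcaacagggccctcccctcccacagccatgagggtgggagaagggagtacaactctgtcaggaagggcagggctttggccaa
Klk1b3 (chr7:44198020-44198136): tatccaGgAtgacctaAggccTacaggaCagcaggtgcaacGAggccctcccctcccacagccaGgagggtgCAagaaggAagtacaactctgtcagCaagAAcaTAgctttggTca
Klk1b4 (chr7:44207218-44207336): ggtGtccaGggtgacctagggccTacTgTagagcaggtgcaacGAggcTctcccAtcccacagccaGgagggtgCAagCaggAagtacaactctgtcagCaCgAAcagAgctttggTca
Klk1b8 (chr7:43950452-43950564): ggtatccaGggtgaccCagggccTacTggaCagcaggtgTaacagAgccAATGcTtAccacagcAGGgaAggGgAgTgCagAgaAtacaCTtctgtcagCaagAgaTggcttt
Klk1b21 (chr7:44102128-44102242): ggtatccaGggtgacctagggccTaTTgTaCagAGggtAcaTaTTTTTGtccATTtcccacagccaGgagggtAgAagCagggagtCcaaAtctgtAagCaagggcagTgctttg
Klk1b3 was identical to Klk1 in 100 of 117 aligned columns, Klk1b4 in 99 of 119, Klk1b21 in 87 of 116 and Klk1b8 in 85 of 114. Over all 13 paralogs the identity was 74.6 to 85.5% with a median of 81.0%, or 85 to 101 identical bases. The windows of 12 other Klk genes matched the same Klk1 stretch in 10 to 46 bases. Relative to the annotated start, the aligned stretch begins between −215 and −164 in the 4 member paralogs and at −120 in Klk1.

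GATA factors are known to bind a short motif, and 4 forms of it were searched on both strands of these 300-base windows: AGATAA, the same letters with G as the last base, and both of these with T as the first base. None of the 14 windows of Klk1 and the Klk1b genes held one, against 29.8% of all 32851 windows. These 14 windows share sequence and are not independent readings, so nothing is read from their count against that share. Of the 8 members with a window, only Mme had a match, at −129 relative to its start and on the minus strand. A match is not a binding site, and its absence says only that these letters are not in this window.

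The kininogens, the substrates of kallikrein, differed less. Kng1, by the probe at position 1224 of its transcript (chr16:23077602-23079064, across an intron), had a signal of 1898 on the Gata2 CKO array and 1932 on the WT array, a difference of 0.30 ± 0.20. The raw signals were alike, and the positive difference came with the scaling to the 75th percentile. A second Kng1 probe, at position 263 (chr16:23058636-23058695), was not well above background on either array, with 2.76 on the Gata2 CKO array and 2.91 on the WT array. The 2 probes of the gene thus disagreed on whether it was detected at all. Kng2, the other mouse kininogen gene (chr16:22988088-22988147), had 32.9 on the Gata2 CKO array and 22.9 on the WT array, a difference of 0.85 ± 0.30. Both Kng2 signals were close to the lowest signals well above background, 11.56 on the Gata2 CKO array and 12.04 on the WT array.

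Of the kinin receptors, Bdkrb1 was detected and Bdkrb2 was not well above background. Bdkrb1 encodes the B1 receptor, which is known to be induced in injury and inflammation and to bind kinins that have lost their last arginine. Its probe (chr12:106842962-106843021) had 669 on the Gata2 CKO array and 543 on the WT array, a difference of 0.63 ± 0.20, or 1.55-fold. Bdkrb2 encodes the B2 receptor, which responds to bradykinin itself. Its probe (chr12:106829955-106830014) had 7.09 on the Gata2 CKO array and 7.82 on the WT array, so no difference could be given.

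Mme encodes neprilysin, a membrane metalloprotease that degrades kinins and natriuretic peptides. Its probe at position 842 (chr3:63143972-63144031) had 1281 on the Gata2 CKO array and 774 on the WT array, a difference of 1.06 ± 0.20, or 2.08-fold. The probe at position 2879 (chr3:63184793-63184852) had 521 on the Gata2 CKO array and 439 on the WT array, a difference of 0.58 ± 0.20, or 1.49-fold. Mme was therefore at least 2-fold higher by 1 of its 2 probes only, and by the mean of both its difference was 0.82. Over all 5308 genes with several probes read on both arrays, the differences of a gene's probes had a root mean square SD of 0.27.

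The 4 measured members that are not kallikreins had differences from 0.30 to 1.06 with a median of 0.74, and the 5 kallikreins had 1.42 to 1.61 with a median of 1.55. These ranges do not overlap, but no test of the difference was possible, and the members had been picked from the same contrast.

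Under each of 9 other ways of processing, the lowest kallikrein lay above the highest other member, and the size of the differences depended on the scaling. When the arrays were set equal on 8 spike-in transcripts in place of the 75th percentile, the difference of each measured member fell by 0.54 and the median of all genes was −0.50. On that scale the kallikreins lay between 0.88 and 1.06, Mme was at 0.51 and Kng1 turned to −0.24, while the other 8 measured members stayed above 0. The median of the kallikreins lay 1.40 to 1.52 above that of all genes under each of these settings. The split of genes at least 2-fold apart moved with the scaling too, from 282 higher and 538 lower in Gata2 CKO cells to 206 higher and 642 lower with cyclic loess, and to 60 higher and 1634 lower with the spike-in transcripts.

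**Figure D4:**
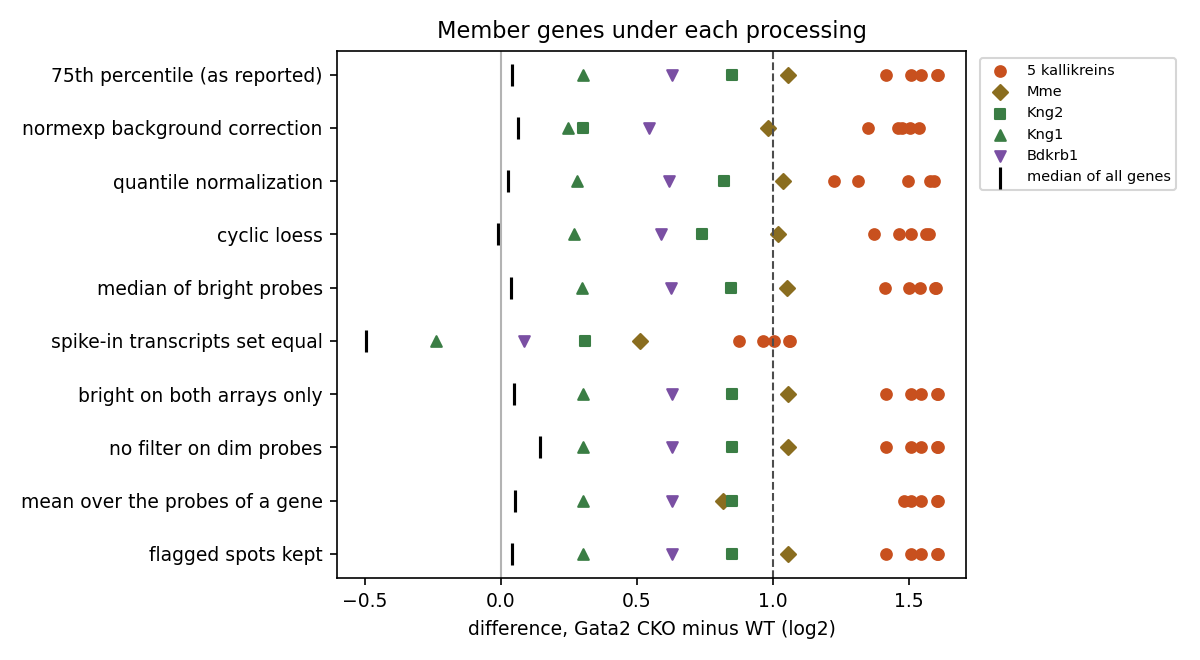
Difference between Gata2 CKO and WT (log2) of the 9 measured members under the reported scaling and 9 alternatives, with the median of all genes as a black tick. The kallikreins lie right of the other members under each setting, and with the spike-in transcripts set equal they lie at 0.88 to 1.06 while Kng1 is at −0.24.

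The wider pathway was read from lists that were chosen with earlier results of these data known. Among 7 genes of the plasma contact system, the blood-borne route to kinins, 4 were measured and 1 was at least 2-fold apart. Serping1, which encodes the C1 inhibitor of plasma kallikrein, had 21.6 on the Gata2 CKO array and 85.8 on the WT array, a difference of −1.66 ± 0.26. Its Gata2 CKO signal was close to that array's lowest signal well above background, 11.56. Klkb1, which encodes plasma kallikrein, had 145.5 on the Gata2 CKO array and 101 on the WT array, a difference of 0.86 ± 0.21. F12, F11 and Plg, which encode coagulation factors and plasminogen, were not well above background on either array.

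Of 19 enzymes that degrade or convert kinins and related peptides, 16 were measured, and 11 had a positive and 5 a negative difference, with a median of 0.14. Mme was the only one at least 2-fold higher, and 2 were at least 2-fold lower. Cpn1, the catalytic subunit of carboxypeptidase N, which removes the last arginine of kinins, had 13.7 on the Gata2 CKO array and 112 on the WT array, a difference of −2.71 ± 0.34. Its Gata2 CKO signal was close to that array's lowest signal well above background, 11.56. Cpe, a carboxypeptidase of hormone processing, had 87.7 on the Gata2 CKO array and 461 on the WT array, a difference of −2.06 ± 0.21. Ace, whose product is a main kinin-degrading enzyme of blood vessels and proximal tubule, had 47.8 on the Gata2 CKO array and 54.3 on the WT array, a difference of 0.15 ± 0.24. Klkb1 and Ace lie outside the rule for naming genes and were added after their values were seen.

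Of 8 kallikrein and protease inhibitors, 6 were measured, with 3 positive and 3 negative differences and a median of 0.07. Spink1, listed under its older mouse name Spink3, encodes a secreted trypsin inhibitor and had 733 on the Gata2 CKO array and 3915 on the WT array, a difference of −2.09 ± 0.20. It was the only one of the 6 at least 2-fold apart. Of 12 other kallikrein-related peptidase genes, 5 were measured and 6 were not well above background, and none was 2-fold apart, with a median of −0.10. The furthest from 0 were Klk10, at 0.39, and Klk4, at 0.28.

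Of 15 genes through which kinin receptors act, 13 were measured and none was 2-fold apart, with 5 positive and 8 negative differences and a median of −0.05. Over the 11 of them read on both arrays the median was −0.01. The furthest from 0 were receptors and enzymes of prostaglandins. Ptger4, a prostaglandin E receptor, had 86.9 on the Gata2 CKO array and 183 on the WT array, a difference of −0.75 ± 0.21. Ptger1, another of these receptors, had 790.3 on the Gata2 CKO array and 652 on the WT array, a difference of 0.61 ± 0.20. Of 12 channel-activating proteases, channels and pumps of the distal nephron, some of them known targets of tissue kallikrein, 11 were measured, with 6 positive and 5 negative differences and a median of 0.04. Tmprss4, a membrane serine protease, had 32.8 on the Gata2 CKO array and 19.8 on the WT array, a difference of 1.06 ± 0.32, and was the only one 2-fold apart. Both its signals were close to the lowest signals well above background, 11.56 on the Gata2 CKO array and 12.04 on the WT array.

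These directions depended on the scaling. With the arrays set equal on spike-in transcripts, the list medians of kinin-degrading enzymes, protease inhibitors and the channel and protease list turned negative, at −0.41, −0.48 and −0.50. No gene of these 3 lists, Mme and Tmprss4 included, was then 2-fold higher, and 3 genes through which kinin receptors act were 2-fold lower.

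**Figure D5:**
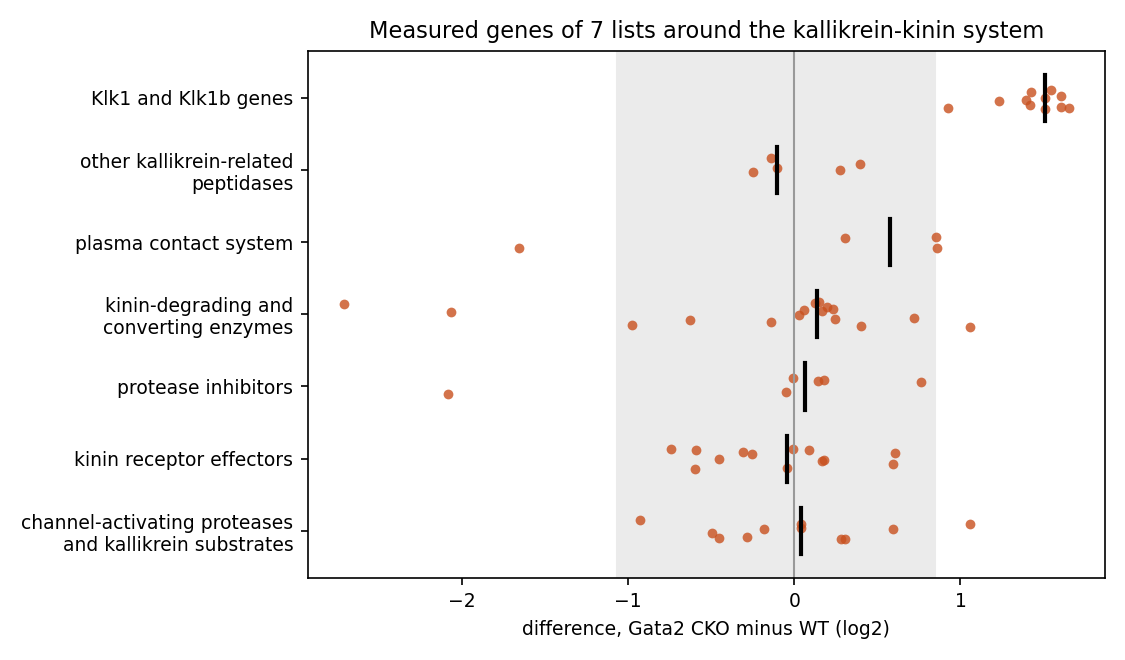
Difference between Gata2 CKO and WT (log2) of each measured gene (points) in 7 lists, with the list median as a black bar. The central 95% of all measured genes is shaded, and the grey line is at 0. With the reported scaling, Klk1 and the Klk1b genes lie at 0.93 and above, and the medians of the other lists lie between −0.10 and 0.58. The lowest points are Cpn1, Spink1, Cpe and Serping1.

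Levels of other cell types moved as well between the arrays. Gata2 itself, by probes at positions 3051 and 2578, had 2424 and 2194 on the Gata2 CKO array, against 3943 and 3432 on the WT array, differences of −0.37 ± 0.20 and −0.32 ± 0.20. Which exons were deleted is not given in the labels, so these probes may lie outside the deleted part and do not check the genotype. The labelled tissue had its defining markers, with 11 of 11 principal cell and 10 of 10 intercalated cell genes well above background. Detection alone did not single this tissue out. All 12 proximal tubule, 9 thick ascending limb, 11 macrophage and lymphocyte, and 8 podocyte and parietal markers with a probe were also measured. So were 18972 of all 30198 genes with a probe. Each list's level below is the sum of its measured genes' signals as multiples of the array's 75th percentile. The list of connecting and distal convoluted tubule markers pools the connecting tubule, where Klk1 is mainly made, with the distal convoluted tubule. Its markers summed to 271 on the Gata2 CKO array and 215 on the WT array, and 7 of 11 had a positive difference, with a median of 0.12. S100g, a calcium-binding protein gene, carried that sum, with 202 on the Gata2 CKO array and 135.6 on the WT array. The other 10 markers summed to 69.3 on the Gata2 CKO array and 79.6 on the WT array, the opposite direction. Most of that remainder was Calb1 alone, with 52.3 on the Gata2 CKO array and 64.1 on the WT array. The direction of either sum is thus mainly that of its brightest gene. No marker of the list was 2-fold higher, and Pvalb, a marker of the early distal convoluted tubule, was lower at −1.40. Its Gata2 CKO signal of 12.5 was close to that array's lowest signal well above background, 11.56. The other negative differences in the list were −0.78 for Slc12a3, −0.30 for Calb1 and −0.26 for Atp2b1. The positive ones were 0.59 for Trpv5, 0.57 for S100g, 0.57 for Emx1 and 0.52 for Wnk4. Klhl3, Slc8a1 and Trpm6 were nearer to the median of all genes, at 0.17, 0.12 and 0.07. The intercalated cell markers summed to 319.5 on the Gata2 CKO array and 203 on the WT array, and 10 of 10 were higher, with a median of 0.85. Principal cell markers summed to 918 on the Gata2 CKO array and 1095 on the WT array, with 2 of 11 higher and a median of −0.43. Markers of the thick ascending limb summed to 80.6 on the Gata2 CKO array and 74.0 on the WT array, with 6 of 9 higher and a median of 0.39, and without Umod, the brightest of them, to 45.4 on the Gata2 CKO array and 47.2 on the WT array. Mme is also known from proximal tubule and podocytes. Proximal tubule markers summed to 22.5 on the Gata2 CKO array and 36.2 on the WT array, with 11 of 12 lower. Podocyte and parietal markers summed to 2.77 on the Gata2 CKO array and 4.58 on the WT array, with 8 of 8 lower. Macrophage and lymphocyte markers summed to 45.9 on the Gata2 CKO array and 94.6 on the WT array, with 9 of 11 lower. Scaling on the spike-in transcripts turned both tubule lists: the connecting and distal convoluted tubule markers then summed to 186 on the Gata2 CKO array and 215 on the WT array, with 3 of 11 higher and a median of −0.42. The thick ascending limb markers then summed to 55.3 on the Gata2 CKO array and 74.0 on the WT array, with 4 of 9 higher and a median of −0.15. On that scale the intercalated cell markers summed to 219 on the Gata2 CKO array and 203 on the WT array, with 8 of 10 higher. The part of these cell types in the member values was not tested. By comparison, Klk1 and its measured paralogs summed to 1056 on the Gata2 CKO array and 374 on the WT array, and with spike-in scaling to 725 on the Gata2 CKO array and 374 on the WT array.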

How the data were processed

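The deposited files hold spot intensity on a linear scale from 2 one-colour arrays, each with 45018 spots, 43379 of them not controls. Per the file headers, the authors' scanner software was Agilent Feature Extraction 10.7.3.1, which subtracted background, and probes were placed on mm9. For normalization between arrays by the authors, the sources used here give nothing.

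Outlier flags removed 73 spots of the Gata2 CKO array and 66 of the WT array, and 0 were saturated. Of the non-control spots, 62.4% on the Gata2 CKO array and 64.1% on the WT array were well above background. The number of arrays limits the precision. Values are log2 processed signal minus that of the array's 75th percentile, averaged over spots of a probe. A gene was read from the probe brightest on average, of those well above background on 1 or both arrays. With 1 array, only a bound is given, set by the dim probe's own signal or, if higher, that array's lowest signal well above background. Lists and counts include such bounds. No test was run, and counts use a size of 2-fold.

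The members, the lists and the rules were chosen with earlier results of these data known. Genes named were every member by each probe, the Klk1b paralogs on the array, Gata2 and, of each other pathway list, those at least 2-fold apart or otherwise the 2 furthest from 0; a marker or neighbouring gene outside this rule was chosen after its values were seen. Probe overlaps were sought without gaps over at least 20 bases with over 75% identity. The steps were tested on simulated data. Alternatives were normexp with an offset of 50, quantile, cyclic loess, bright-probe median and spike-in scaling, other filters, the mean over probes, and flagged spots kept. Software was Python 3.11.15 (pandas 2.3.3, numpy 2.4.6, matplotlib 3.10.9), with limma 3.58.1 in R 4.3.3.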

Additional observations from a re-analysis of the deposited data

How the results depend on the processing

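Of 81 differences of member genes under 9 alternatives, 11 moved by more than the spot error and 1 was below 0, Kng1 at −0.24 with spike-in scaling. That scaling gave a kallikrein median of 1.005, a median of the other members of 0.20, 3 members at least 2-fold higher, and 60 genes higher and 1634 lower among all genes, since it lowers differences read on both arrays by one constant. With normexp correction, which adds an offset of 50 to every signal, the median of the other members was 0.42, Kng2 was at 0.30, and 65 genes were 2-fold higher and 201 lower. Without a filter on dim probes, 1214 genes were 2-fold higher and 1245 lower, of 30198 genes then counted. No paired analysis was possible because each genotype has 1 array. Spots printed 10 times, of probes bright on both arrays, had an SD of the difference from 0.032 for the brightest to 0.21 for the dimmest of 5 groups. Sums of markers without their brightest gene, and counts of lists and of Klk1b genes under these settings, were added after seeing the data. This spot spread is the limit of the measurement on an array, and the spread between mice is unknown.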
